A study of Mus musculus with 10 samples.

Results

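The hepatic acute phase response was followed here through 35 genes, chosen by symbol for their known part in that response by a rule that uses no values, although earlier results of these data were known when the list was made. All 35 matched a row of the deposited mouse count table, which has 46071 gene rows. All 35 were also among the 14820 genes with enough counts to be tested. Liver RNA was sequenced in 10 libraries from the offspring of crosses that involved LIRKO mice, which lack the insulin receptor in hepatocytes. Offspring of a LIRKO father and a control mother are called FL (3 libraries, numbered 5 to 7). Offspring of a control father and a LIRKO mother are called ML (3 libraries, numbered 8 to 10). Control offspring (4 libraries, numbered 1 to 4) had a control father and a control mother. Every parent carried floxed insulin receptor alleles. LIRKO parents also carried 1 copy of Albumin-Cre, a recombinase driven by the albumin promoter, which is active in hepatocytes. Control parents had no Cre and descended from 4 generations of crosses between such mice. Whether the offspring themselves carried Cre, and their sex, age, diet and litter, is not in the labels. Nor do the labels state that libraries came from different animals, and the p-values cover the spread between libraries, which may be technical in part.

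In an acute phase response the liver changes which plasma proteins it makes after infection, injury or surgery. Interleukin-6 binds its receptor and gp130 on hepatocytes and activates the transcription factor STAT3, while interleukin-1 acts through NF-kB. Both act together with C/EBP factors. The genes that go up encode serum amyloid A, orosomucoids, fibrinogen, haptoglobin, hepcidin and protease inhibitors, and STAT3 also turns on its own inhibitor Socs3. Metallothioneins are induced as well, by interleukin-6, glucocorticoids and zinc. In the mouse, serum amyloid A proteins and serum amyloid P (Apcs) are the classical markers, and C-reactive protein (Crp) changes little.

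Promoter windows from RefSeq (GRCm38.p6) covered 250 bases before to 50 bases after the annotated start, and 27 of the 35 genes had at least 1 window. Orm1, Hp, C4b, Cfb, Lbp, Cd14, Serpina3k and Serpina3m had none and are named only. The 250 bases before the start are shown for 6 members. Their levels differed by 5.365-fold (Fgb) to 448-fold (Mt2) between highest and lowest library, and other members with a window varied more than Fgb. Each window shown held a match of the motifs below, whereas some others, such as those of Stat3 and Serpina3n, held none. Capitals mark matches, on either strand, of 5 motifs: STAT (TTCNNNGAA), the type II interleukin-6 response element (CTGGGAA), C/EBP (TTGCNNAA or TTNNGCAA), the metal response element (TGCACNC or TGCGCNC) and NF-kB, which was searched by its usual consensus. The windows lie at chr7:46742981-46743230 on the minus strand (Saa1), chr7:46751583-46751832 on the plus strand (Saa2), chr3:83049864-83050113 on the minus strand (Fgb), chr5:7960222-7960471 on the plus strand (Steap4), chr11:117969367-117969616 on the minus strand (Socs3) and chr8:94172368-94172617 on the plus strand (Mt2).
Saa1: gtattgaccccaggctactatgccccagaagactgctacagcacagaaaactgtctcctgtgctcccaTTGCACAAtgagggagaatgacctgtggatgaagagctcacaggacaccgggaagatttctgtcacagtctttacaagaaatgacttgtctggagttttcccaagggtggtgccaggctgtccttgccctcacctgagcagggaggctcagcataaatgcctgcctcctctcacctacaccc
Saa2: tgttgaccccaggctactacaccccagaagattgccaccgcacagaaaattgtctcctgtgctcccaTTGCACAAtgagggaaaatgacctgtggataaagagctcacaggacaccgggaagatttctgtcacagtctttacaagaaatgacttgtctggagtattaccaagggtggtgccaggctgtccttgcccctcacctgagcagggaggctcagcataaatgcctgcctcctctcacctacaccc
Fgb: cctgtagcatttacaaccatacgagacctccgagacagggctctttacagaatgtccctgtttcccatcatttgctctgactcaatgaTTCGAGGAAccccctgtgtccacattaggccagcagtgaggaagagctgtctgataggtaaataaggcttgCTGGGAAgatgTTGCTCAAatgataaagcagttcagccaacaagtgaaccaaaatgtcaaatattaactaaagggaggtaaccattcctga
Steap4: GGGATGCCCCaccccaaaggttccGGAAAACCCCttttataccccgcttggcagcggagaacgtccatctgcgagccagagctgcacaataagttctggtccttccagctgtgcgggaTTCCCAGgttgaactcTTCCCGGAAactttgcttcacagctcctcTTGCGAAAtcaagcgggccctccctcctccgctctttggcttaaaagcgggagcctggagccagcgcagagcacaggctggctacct
Socs3: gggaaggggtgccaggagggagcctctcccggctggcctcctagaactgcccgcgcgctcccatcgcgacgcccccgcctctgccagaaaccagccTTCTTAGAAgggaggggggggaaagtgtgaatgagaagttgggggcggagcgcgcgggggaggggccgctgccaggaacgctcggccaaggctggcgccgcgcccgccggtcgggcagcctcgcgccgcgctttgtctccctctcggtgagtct
Mt2: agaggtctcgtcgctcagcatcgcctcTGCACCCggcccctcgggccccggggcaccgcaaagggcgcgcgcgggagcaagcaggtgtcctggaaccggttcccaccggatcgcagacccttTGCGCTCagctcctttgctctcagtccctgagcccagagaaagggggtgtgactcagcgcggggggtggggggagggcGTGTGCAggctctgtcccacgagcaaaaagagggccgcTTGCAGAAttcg

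The Saa1 and Saa2 windows were nearly the same, with 287 of 301 aligned columns identical (95.3%, over the whole windows), and shared the C/EBP match TTGCACAA. The Fgb window held a STAT match, a type II element and a C/EBP match. The Steap4 window held these 3 motifs and 2 matches of the NF-kB consensus. The Socs3 window held 1 STAT match, and Mt2 held 3 metal response elements before its start and 1 after it. Over all member windows, the C/EBP motif was found in 16 of 29 (55.2%), against 10.8% of 32851 mouse promoter windows of the same length. The STAT motif was found in 7 of 29 member windows (24.1%; Apcs, Fga, Fgb, Steap4, Hamp, Socs3 and Itih4), against 8.3% of all windows. Shares were 17.2% of member windows against 11.1% of all windows for CTGGGAA, 24.1% against 25.7% for the metal response element, and 6.9% against 8.46% for NF-kB. A match describes letters in these windows, and a missing match says only that the letters are not there.

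Total counts per library ran from 23192571 to 31116742 in FL, from 26614915 to 34568205 in ML and from 18655506 to 39379940 in controls. Levels are given as CPM, the counts scaled to library size with TMM factors. The 35 members took 5.46 to 6.13% of counts in FL, 3.94 to 4.83% in ML and 3.38 to 8.04% in controls. Albumin was at 41440 to 46550 CPM in FL, 39210 to 58210 in ML and 41680 to 60430 in controls, and the 8 other hepatocyte markers with a row were present in every library. ML 9 stood apart in composition. For genes with exons under 1000 bp in all, the median deviation from the mean of 10 libraries (log2 scale) was 1.22 in ML 9, 0.28 in control 1 and 0.19 in ML 10, against -0.39 to -0.12 in the others. In bulk liver, fewer cells of a type and less RNA per cell cannot be told apart.

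**Figure D1:**
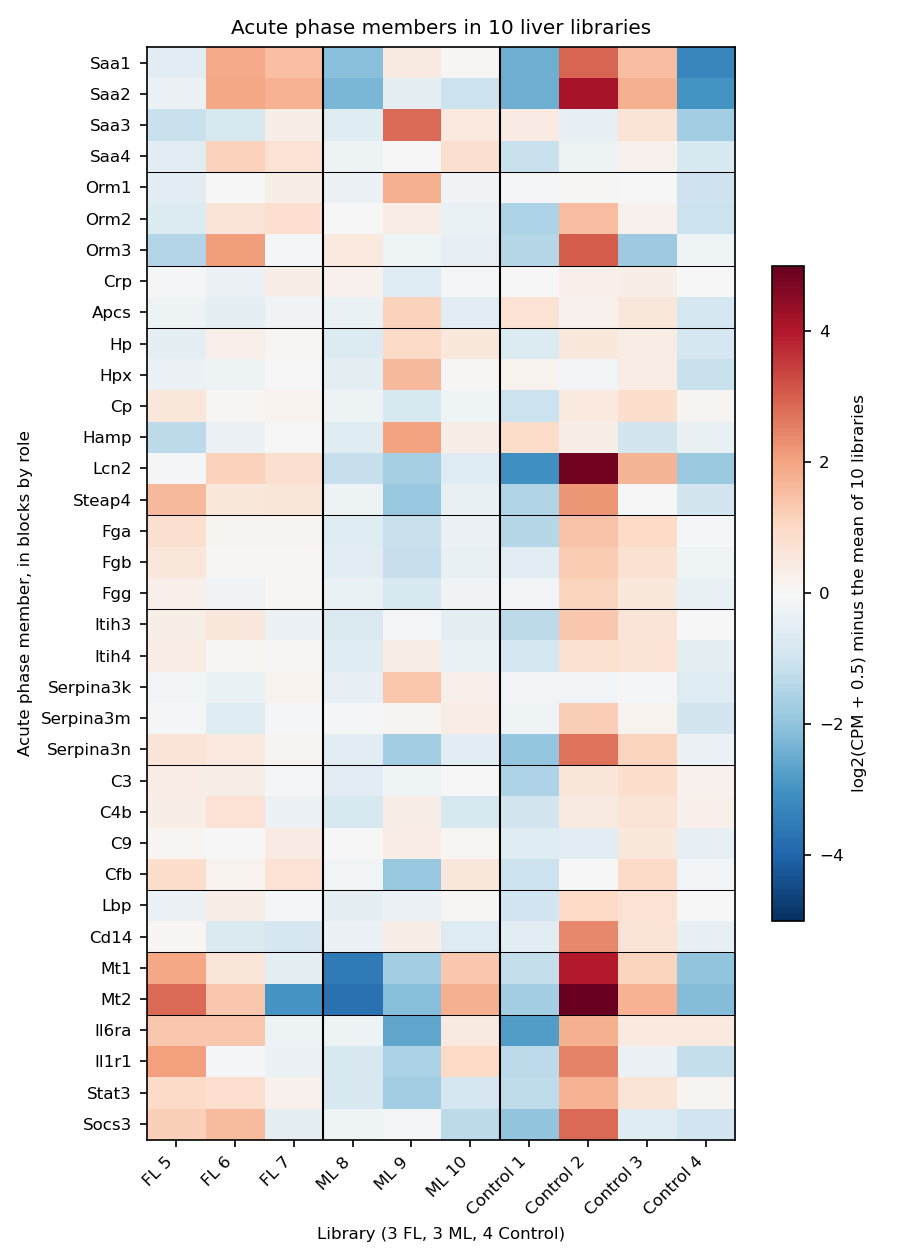
Each row is a member and each column a library; colour gives log2(CPM + 0.5) minus the row's mean over 10 libraries, with horizontal lines between roles. Control 2 is red in most rows, control 1 and control 4 are mostly blue, and ML 9 is red for some rows and blue for others.

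No member differed between FL and control livers, ML and control livers, or FL and ML livers at an edgeR Benjamini-Hochberg adjusted p under 0.05 over all tested genes. In FL against control, 0 of 35 members passed, where 0.0135% of all genes did, and 2 members had an unadjusted p under 0.05, where 3.53% of all genes did. In ML against control, 0 of 35 passed, where 0.0% of all genes did, and 5 had an unadjusted p under 0.05, where 16.1% of all genes did. In FL against ML, 0 of 35 passed, where 0.00675% of all genes did, and 2 had an unadjusted p under 0.05, where 20.0% of all genes did. With only the FL and ML libraries in the fit, 9 members had an unadjusted p under 0.05, where 23.1% of all genes did. The lowest edgeR adjusted p was then 0.186, with Lcn2 and Saa2 among the members at that value. Limma-voom called 0 members in every comparison. DESeq2 called 0 in FL against control (0.351% of all genes) and in ML against control (0.31%). In FL against ML it called 1 member, Stat3 (1.67% of all genes), and left 9 members without an adjusted p. The DESeq2 shares are over all 14820 tested genes, which include genes left without an adjusted p.

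In edgeR on all 10 libraries, more members lay below control than above it. In FL this direction turned without control 2 and with limma-voom. In ML the excess shrank without control 2 and with 1 surrogate variable. In FL, 13 members lay above and 22 below control, at a median log2 fold change of -0.15, against -0.049 over all genes, of which 55.3% lay below. Without control 2, 28 lay above and 7 below, with a median of 0.25, and limma-voom on all libraries put 24 above and 11 below, with a median of 0.14. In ML, 9 members lay above and 26 below control, with a median of -0.67, against -0.047 over all genes, of which 52.9% lay below. Without control 2, 16 lay above and 19 below, with a median of -0.11, and with 1 surrogate variable 17 lay above and 18 below, with a median of -0.022. FL and ML were set against the same 4 controls, so these values share them. In FL against ML, where the controls enter the spread but not the fold change, 26 members lay above and 9 below, with a median of 0.64, against 0.041 over all genes, of which 52.1% lay above. The direction over the members turned to a median of -0.11 with 1 surrogate variable in the fit.

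**Figure D2:**
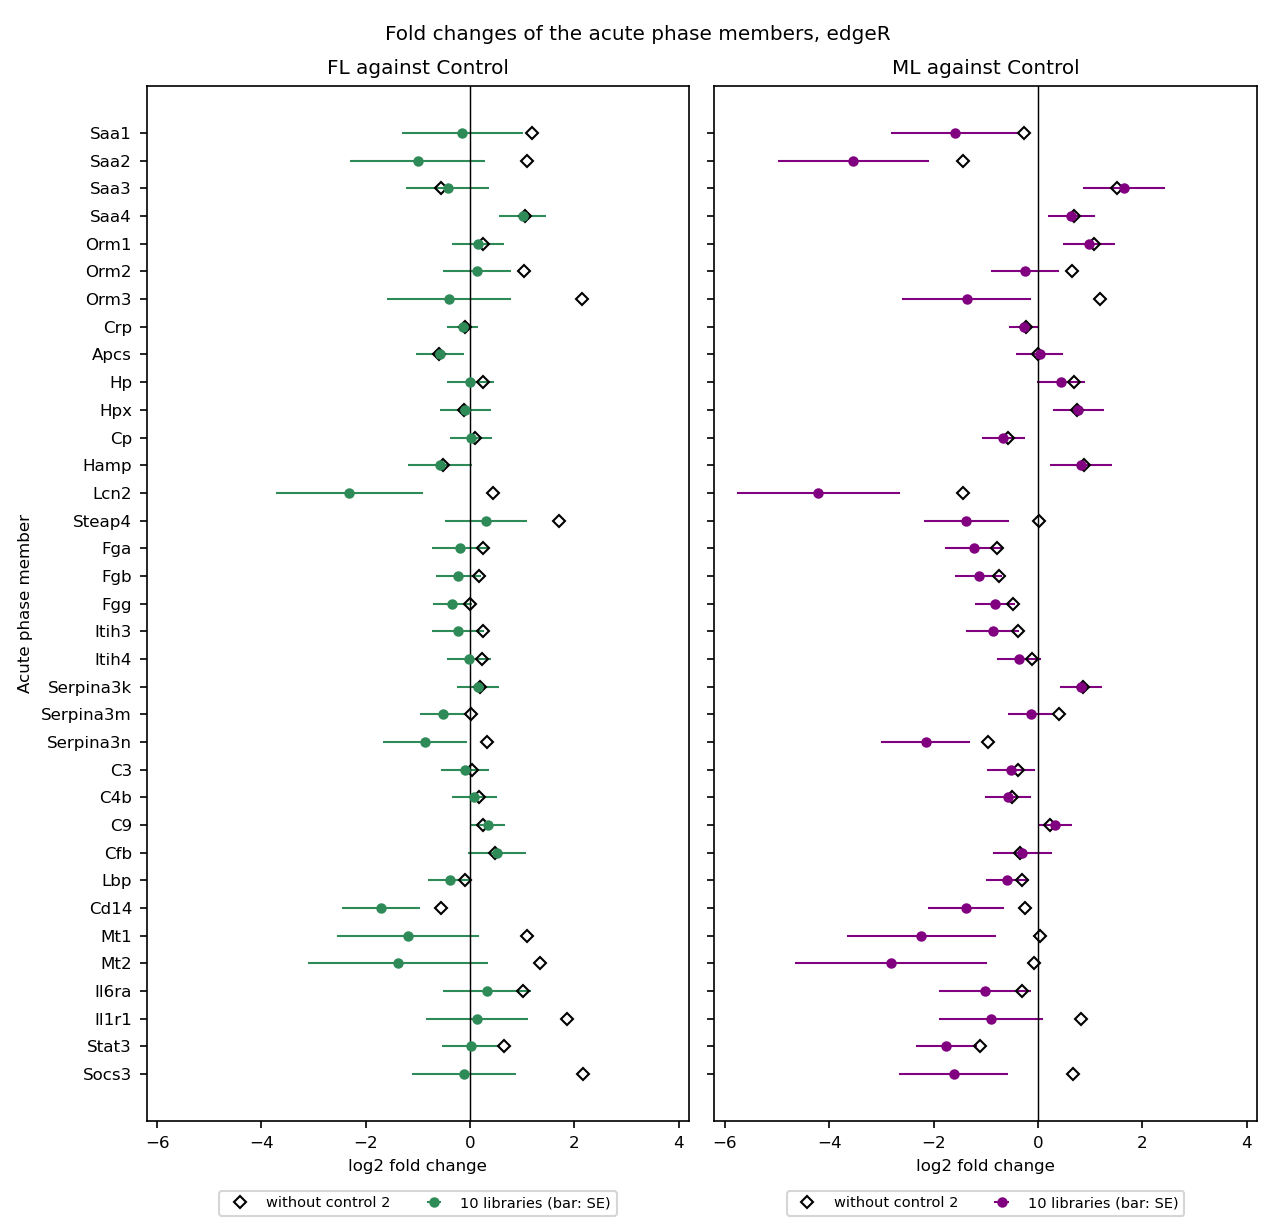
Log2 fold change of each member in FL (left) and ML (right) against control from edgeR on 10 libraries, with bars of 1 SE, and the value without control 2 as open diamonds. Leaving out control 2 moves Lcn2, Saa2, Orm3, Mt1, Mt2, Il1r1 and Socs3 to the right in both panels and hardly moves Crp, Apcs, Hpx, Hamp or Saa4.

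Control 2 had the highest level among the 10 libraries for 21 of 35 members (60.0%), against 12.4% of all tested genes. It was over 2-fold above every other control for 15 members (42.9%), against 3.15% of all tested genes. These 15 fell in 7 of the 10 roles described below and included Saa1, Saa2, Orm3, Lcn2, Serpina3n, Mt1, Mt2 and Socs3. Control 1 was lowest of 10 for 14 members, against 15.6% of all tested genes, and control 4 for 9 members, against 5.72% of all tested genes. The median within-group SD of log2(CPM + 0.5) over members was 0.43 in FL, 0.62 in ML and 1.08 in controls. The same median over all tested genes was 0.31 in FL, 0.44 in ML and 0.45 in controls. The control value for members was still 0.84 without control 2, against 0.45 over all genes. Why control 2 was high was not tested.

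Serum amyloid A proteins are small apolipoproteins that liver secretes in large amounts in the acute phase. Saa1 (ENSMUSG00000074115, chromosome 7, 46740497 to 46742980, GRCm38) had 222, 1198 and 919 CPM in FL, 76.6, 446 and 337 CPM in ML, and 60.2, 2439, 936 and 33.2 CPM in controls. Controls alone spanned the whole range, with controls 2 and 3 high and controls 1 and 4 below every FL and ML library. Against control, the log2 fold change of FL was -0.15 (SE 1.16) and that of ML -1.60 (SE 1.21), and neither passed (edgeR adjusted p = 1.00 and 0.480). Without control 2 the FL value turned to 1.18 and the ML value was -0.26.

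Saa2 (ENSMUSG00000057465, chromosome 7, 46751790 to 46754313), the neighbour of Saa1 and its near copy, had 95.6, 457 and 392 CPM in FL, 24.1, 83.1 and 56.1 CPM in ML, and 21.3, 2083, 404 and 14.4 CPM in controls. All 3 FL libraries lay above all 3 ML libraries, although FL 5 and ML 9 were close. The log2 fold change was 2.53 (SE 1.42) in FL against ML, with an edgeR adjusted p of 0.307. In ML against control it was -3.54 (SE 1.45, unadjusted p = 0.0317, edgeR adjusted p = 0.301), and without control 2 it was -1.43. The FL value against control was -1.003 (SE 1.29), and 1.10 without control 2. Of 50-base stretches in Saa1 transcripts, 31.1% also occur in Saa2, so reads may have been split between them. The ratio of Saa1 to Saa2 was 2.33 to 2.62 in FL, 3.18 to 6.01 in ML, and 2.82, 1.17, 2.32 and 2.31 in controls 1 to 4, so Saa2 stood closest to Saa1 in control 2.

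The other Saa genes did not follow this pattern. Saa3, which macrophages and other cells also make in the mouse, was low, at 4.41, 5.53 and 12.6 CPM in FL, 6.49, 75.0 and 14.2 CPM in ML, and 13.7, 7.49, 16.7 and 2.65 CPM in controls. ML 9 held the high value. FL was below ML by a log2 fold change of -2.08 (SE 0.87, unadjusted p = 0.0346, edgeR adjusted p = 0.239), and this was -0.47 without ML 9 and turned to 0.12 with 1 surrogate variable. Saa4, the constitutive form, had 377, 1214 and 890 CPM in FL, 450, 542 and 935 CPM in ML, and 251, 453, 629 and 314 CPM in controls. Its log2 fold change in FL against control was 1.01 (SE 0.45), with an unadjusted p of 0.0457 and an edgeR adjusted p of 1.00. It was 1.05 without control 2, which was not high for Saa4.

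**Figure D3:**
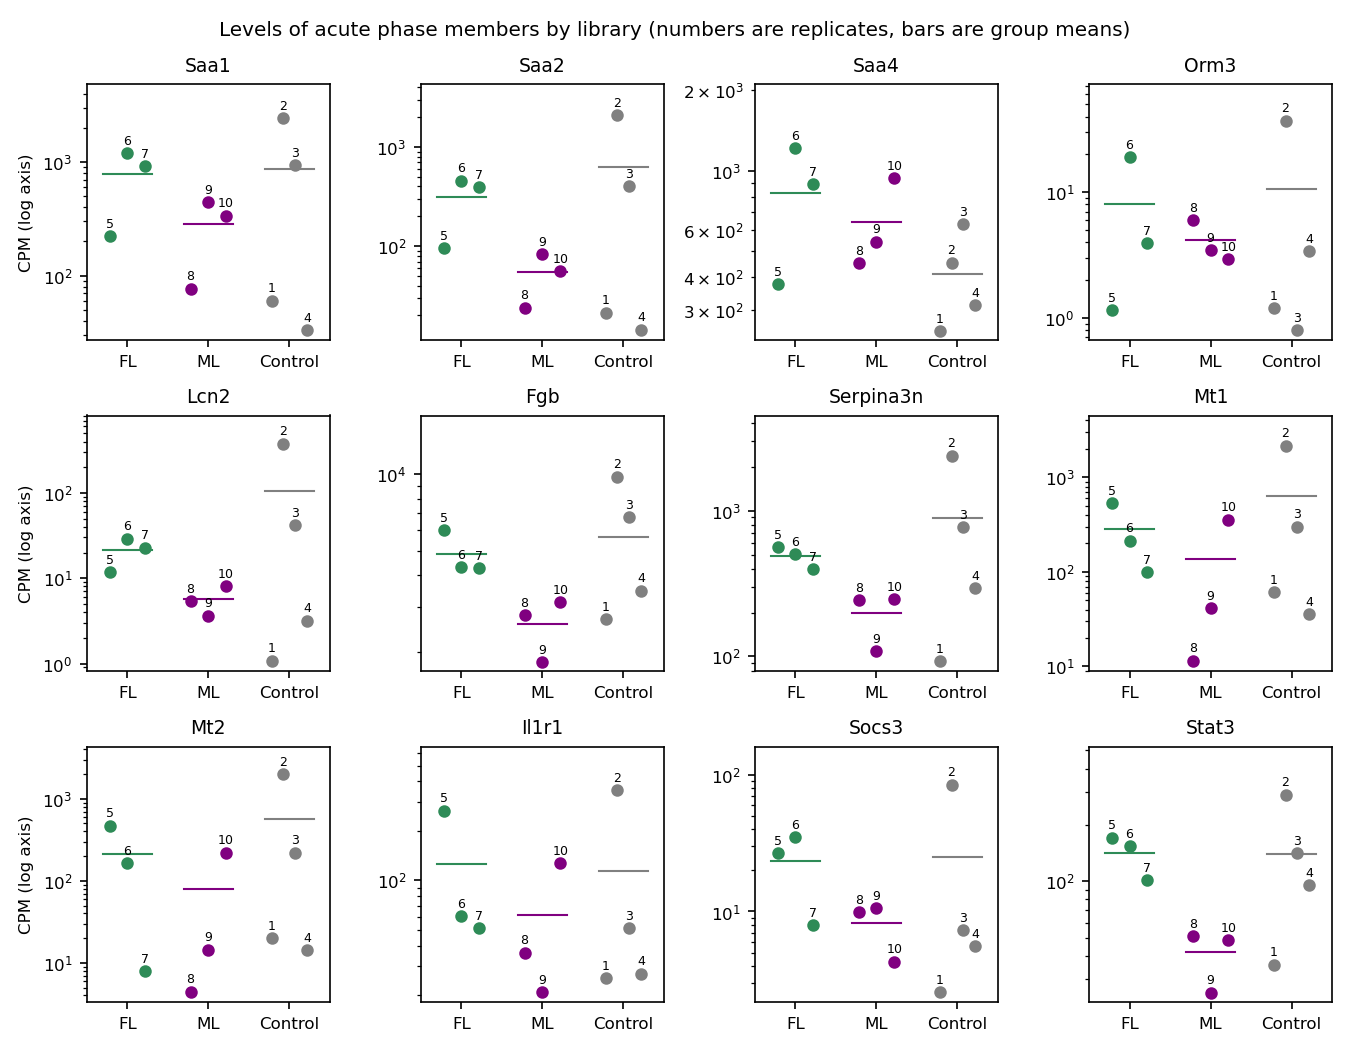
CPM on a log axis for 12 members in FL, ML and control livers; each point is a library with its replicate number and each bar a group mean. Control 2 is the highest point for 11 of the 12, and the groups overlap in both comparisons with controls.

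Orosomucoids (alpha-1-acid glycoproteins) bind drugs and lipids in plasma. Orm1, the most abundant of the family here per kb of exon, had 643, 963 and 1172 CPM in FL, 774, 3308 and 853 CPM in ML, and 920, 994, 958 and 461 CPM in controls. The ML mean of 1645 ± 1441 CPM (SD, n = 3) rested on ML 9. Orm2 had 13.6, 35.2 and 40.0 CPM in FL, 22.5, 28.4 and 17.5 CPM in ML, and 7.18, 64.8, 25.9 and 10.3 CPM in controls. Orm3 had 1.15, 19.1 and 3.93 CPM in FL, 5.99, 3.46 and 2.95 CPM in ML, and 1.20, 37.1, 0.802 and 3.41 CPM in controls. Control 2 was highest for Orm2 and Orm3 and close to controls 1 and 3 for Orm1. Of 50-base stretches, 20.4% were shared between Orm1 and Orm2, so their counts are uncertain.

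Pentraxins bind bacterial surfaces and damaged cells. Crp varied least of all members, by 1.91-fold between its highest and lowest library. It averaged 367 ± 77.0 CPM in FL, 337 ± 94.1 CPM in ML (SD, n = 3 each) and 406 ± 47.2 CPM in controls (SD, n = 4). Apcs, serum amyloid P, had 64.1, 55.5 and 69.0 CPM in FL, 61.7, 172 and 53.1 CPM in ML, and 128, 89.7, 114 and 42.3 CPM in controls. FL lay below 3 of the 4 controls, with a log2 fold change of -0.57 (SE 0.46) and an edgeR adjusted p of 1.00. Unlike Saa1 and Saa2, Apcs was not highest in control 2, which ranked 4 of 10.

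Several members handle haem and iron. Haptoglobin (Hp) binds haemoglobin and haemopexin (Hpx) binds haem. Hp averaged 4293 ± 1066 CPM in FL, 5824 ± 2927 CPM in ML (SD, n = 3 each) and 4276 ± 1992 CPM in controls (SD, n = 4). Hpx averaged 4663 ± 533 CPM in FL, 8515 ± 6731 CPM in ML and 4977 ± 1877 CPM in controls. Both were highest in ML 9. Hepcidin (Hamp), which blocks iron export by degrading ferroportin, had 253, 512 and 615 CPM in FL, 416, 2487 and 757 CPM in ML, and 1170, 762, 333 and 482 CPM in controls. Its log2 fold change in FL against ML was -1.41 (SE 0.66, edgeR adjusted p = 0.252). It was -0.36 without ML 9 and -0.35 once each library was corrected for exon length and GC content, and turned to 0.17 with 1 surrogate variable. Hamp is the shortest member, with 410 bp of exon, and was highest in ML 9, where short genes lay furthest above their mean, and next highest in control 1. Ceruloplasmin (Cp), a copper-carrying ferroxidase, averaged 748 ± 139 CPM in FL, 467 ± 87.5 CPM in ML (SD, n = 3 each) and 741 ± 357 CPM in controls (SD, n = 4). The 3 FL libraries (650 to 907 CPM) all lay above the 3 ML libraries (366 to 525 CPM).

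Lipocalin 2 (Lcn2), which captures bacterial siderophores, had 11.8, 29.0 and 22.8 CPM in FL, 5.38, 3.65 and 8.06 CPM in ML, and 1.08, 376, 42.1 and 3.18 CPM in controls. Control 2 was 8.94-fold above the next control and 348-fold above control 1. FL lay above ML without overlap. The log2 fold change in ML against control was -4.21 (SE 1.56), with an unadjusted p of 0.0197 and an edgeR adjusted p of 0.301, and -1.43 without control 2. The FL value against control was -2.32 (SE 1.41), and 0.45 without control 2. Control 1 rested on 19 counts. Summed neutrophil markers, whose cells also make Lcn2, were at 3.52 to 6.52 CPM in FL, 1.46 to 10.4 CPM in ML and 2.69 to 9.48 CPM in controls. Control 2 had 9.48 CPM and ML 9 10.4 CPM. Of the 13 markers, 9 were at 0 in some library, so the sum rested on few genes. Among the defining markers, Ly6g was at 0 in 9 of 10 libraries, while S100a8 and S100a9 had counts in every library. The part of neutrophils in the Lcn2 levels was not tested.

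Steap4, a metalloreductase for iron and copper that STAT3 controls in mouse liver, had 510, 233 and 247 CPM in FL, 138, 43.5 and 128 CPM in ML, and 56.8, 763, 163 and 86.4 CPM in controls. FL lay above ML without overlap, with a log2 fold change of 1.68 (SE 0.86), an unadjusted p of 0.0744 and an edgeR adjusted p of 0.274. Control 2 was again above all other libraries and the other controls lay below every FL library. Its promoter window, printed above, held STAT, type II, C/EBP and NF-kB matches.

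Fibrinogen is made of 3 chains encoded by neighbouring genes on chromosome 3, and the levels of Fga and Fgb varied together over the libraries. Fga had 6294, 3936 and 3929 CPM in FL, 2366, 1636 and 2928 CPM in ML, and 1327, 9557, 7149 and 3484 CPM in controls. Fgb (ENSMUSG00000033831, chromosome 3, 83040141 to 83049863) had 6015, 4311 and 4259 CPM in FL, 2787, 1820 and 3132 CPM in ML, and 2683, 9765, 6782 and 3479 CPM in controls. Fgg averaged 3432 ± 489 CPM in FL, 2463 ± 528 CPM in ML (SD, n = 3 each) and 4341 ± 2073 CPM in controls (SD, n = 4). Fga and Fgb did not overlap between FL and ML, and controls spanned both. Fgb had a log2 fold change of -1.14 (SE 0.45) in ML against control (unadjusted p = 0.0264, edgeR adjusted p = 0.301) and 0.91 (SE 0.47) in FL against ML (edgeR adjusted p = 0.275). Fga had -1.22 (SE 0.56) in ML against control (edgeR adjusted p = 0.310). Without control 2 the ML values were -0.74 for Fgb and -0.78 for Fga. The ratio of Fga to Fgb was 0.849 to 1.05 in 9 libraries and 0.494 in control 1.

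Among the protease inhibitor family, Serpina3n, which inhibits neutrophil proteases and is induced in the acute phase, had 564, 504 and 395 CPM in FL, 242, 109 and 247 CPM in ML, and 92.8, 2388, 774 and 294 CPM in controls. FL lay above ML without overlap, and controls reached both above and below them. The log2 fold change in ML against control was -2.15 (SE 0.85), with an unadjusted p of 0.0263 and an edgeR adjusted p of 0.301, and -0.95 without control 2. Against control, the FL value was -0.86 (SE 0.81), and 0.33 without control 2.

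Serpina3k and Serpina3m stood apart from Serpina3n. Serpina3k was the most abundant member per kb of exon, at 7425 CPM per kb on average. It had 12960, 11150 and 16120 CPM in FL, 10710, 36980 and 16580 CPM in ML, and 12790, 12840, 13540 and 9082 CPM in controls, so control 2 was within the other controls. Serpina3m had 340, 240 and 347 CPM in FL, 341, 401 and 471 CPM in ML, and 312, 858, 414 and 193 CPM in controls, with a log2 fold change in FL against control of -0.52 (SE 0.44). The ratio of Serpina3k to Serpina3n ran from 22.1 to 40.8 in FL, from 44.2 to 340 in ML (ML 9) and from 5.38 (control 2) to 138 (control 1) in controls. Exons of Serpina3k and Serpina3m overlap on the same strand in the annotation, and 12.8% of Serpina3k stretches of 50 bases occur in Serpina3m, so their split is uncertain. Itih3 and Itih4 are heavy chains of the inter-alpha-trypsin inhibitors. Itih3 averaged 757 ± 212 CPM in FL, 487 ± 103 CPM in ML (SD, n = 3 each) and 885 ± 586 CPM in controls (SD, n = 4). Itih4 averaged 1810 ± 219 CPM in FL, 1423 ± 469 CPM in ML and 1836 ± 948 CPM in controls.

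FL and ML means of the complement members lay within 1 SD of the control mean. C3, the central component, averaged 4653 ± 757 CPM in FL, 3489 ± 663 CPM in ML (SD, n = 3 each) and 4973 ± 2624 CPM in controls (SD, n = 4). C4b averaged 1231 ± 421 CPM in FL, 780 ± 363 CPM in ML and 1164 ± 460 CPM in controls. C9, which forms the membrane pore, averaged 831 ± 128 CPM in FL, 818 ± 106 CPM in ML and 653 ± 276 CPM in controls. Cfb, factor B of the alternative pathway, averaged 28.0 ± 6.92 CPM in FL, 15.8 ± 11.1 CPM in ML and 19.5 ± 11.3 CPM in controls. The highest library was control 3 for C3, C9 and Cfb and FL 6 for C4b, and control 2 was above the next control for none of the 4.

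Lbp and Cd14 pass endotoxin to its receptor. Lbp averaged 68.1 ± 14.8 CPM in FL, 59.4 ± 11.8 CPM in ML (SD, n = 3 each) and 89.4 ± 45.5 CPM in controls (SD, n = 4). Cd14, the least abundant member per kb at 2.53 CPM per kb, had 3.41, 1.71 and 1.54 CPM in FL, 2.52, 3.98 and 1.89 CPM in ML, and 2.05, 5.49 and 2.26 CPM in controls 1, 3 and 4. Control 2 was the highest library, with 746 counts, against 36, 212 and 101 counts in controls 1, 3 and 4. Its log2 fold change in FL against control was -1.71 (SE 0.74), with an unadjusted p of 0.0406 and an edgeR adjusted p of 1.00, and -0.57 without control 2. FL libraries held 53 to 92 counts.

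Metallothioneins are small proteins that bind zinc and copper. Mt1 had 534, 214 and 99.8 CPM in FL, 11.5, 41.3 and 357 CPM in ML, and 60.7, 2172, 302 and 35.6 CPM in controls. Mt2, its neighbour on chromosome 8, had 472, 166 and 7.95 CPM in FL, 4.47, 14.5 and 221 CPM in ML, and 19.9, 2000, 221 and 14.2 CPM in controls. Control 2 was 7.19-fold above the next control for Mt1 and 9.07-fold for Mt2, and Mt2 differed by 448-fold between control 2 and ML 8. Both genes also ran high in FL 5, ML 10 and control 3, so high and low libraries occurred in every group. Against control, the log2 fold change of Mt1 was -1.18 (SE 1.36) for FL and -2.23 (SE 1.43) for ML, and Mt2 had -1.39 (SE 1.73) and -2.81 (SE 1.84). The edgeR adjusted p was 1.00 in FL for both, and 0.411 for Mt1 and 0.419 for Mt2 in ML. Without control 2 these 4 values were 1.09 and 0.04 for Mt1, and 1.34 and -0.08 for Mt2. The ratio of Mt1 to Mt2 was 12.6 in FL 7, against 1.09 to 3.05 in the 9 other libraries. No 50-base stretch is shared between Mt1 and Mt2.

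The signalling members carry the response inside the hepatocyte. Stat3 (ENSMUSG00000004040, chromosome 11, 100885098 to 100939540) had 171, 154 and 102 CPM in FL, 51.0, 25.4 and 48.4 CPM in ML, and 35.8, 290, 141 and 95.2 CPM in controls. The lowest FL library, at 102 CPM, lay above the highest ML library, at 51.0 CPM, and controls spanned both groups. Its log2 fold change in FL against ML was 1.77 (SE 0.61), with an unadjusted p of 0.0134 and an edgeR adjusted p of 0.238. DESeq2 gave an adjusted p of 0.045, and over all alternatives the adjusted p ran from 0.045 to 1.00. In ML against control it was -1.76 (SE 0.58), with an unadjusted p of 0.0112 and an edgeR adjusted p of 0.301, and -1.12 without control 2. Against control, the FL value was 0.01 (SE 0.55). Once each library was corrected for exon length and GC content, the value was 1.17 in FL against ML and -1.11 in ML against control. Stat3 is among the longest members, with 9527 bp of exon, and was lowest in ML 9 and next lowest in control 1. For genes with over 3000 bp of exon, the median deviation was -0.36 in ML 9 and -0.19 in control 1, lower than in every other library. The part of exon length in the Stat3 levels was not tested. The FL and ML libraries were apart without ML 9 as well, at 102 to 171 CPM in FL against 48.4 and 51.0 CPM in ML. In edgeR without ML 9, the log2 fold change of Stat3 in FL against ML was 1.496 (SE 0.6801). The unadjusted p was then 0.0514 and the edgeR adjusted p 0.6655. Stat5a overlaps Stat3 on the other strand with at most 497 counts.

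Socs3, the feedback inhibitor that STAT3 induces, had 26.7, 35.2 and 7.95 CPM in FL, 9.88, 10.6 and 4.28 CPM in ML, and 2.56, 85.2, 7.30 and 5.56 CPM in controls. Control 2 was 11.7-fold above the next control, and FL 5 and FL 6 were above all the rest. Against control, its log2 fold change was -0.11 (SE 0.99) for FL and -1.61 (SE 1.05) for ML, and 2.17 and 0.68 without control 2. The receptor chain Il6ra had 107, 106 and 35.1 CPM in FL, 34.9, 6.46 and 56.4 CPM in ML, and 5.53, 142, 58.3 and 58.1 CPM in controls. The interleukin-1 receptor Il1r1 had 266, 60.5 and 51.0 CPM in FL, 36.3, 20.9 and 127 CPM in ML, and 25.5, 354, 51.4 and 27.1 CPM in controls. All 4 signalling members were highest in control 2, and Il6ra and Il1r1 were next highest in FL 5.

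Without overlap between groups, 0 members separated FL from control, where 5.71% of all genes did, and 0 separated ML from control, where 5.03% did. Between FL and ML, 8 of 35 members were higher in every FL than in every ML library (Saa2, Cp, Lcn2, Steap4, Fga, Fgb, Serpina3n and Stat3), where 16.6% of all genes were. None of the 35 was lower in every FL library, where 15.1% of all genes were. Many genes thus separated FL from ML, and the share of members is read against that background.

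**Figure D4:**
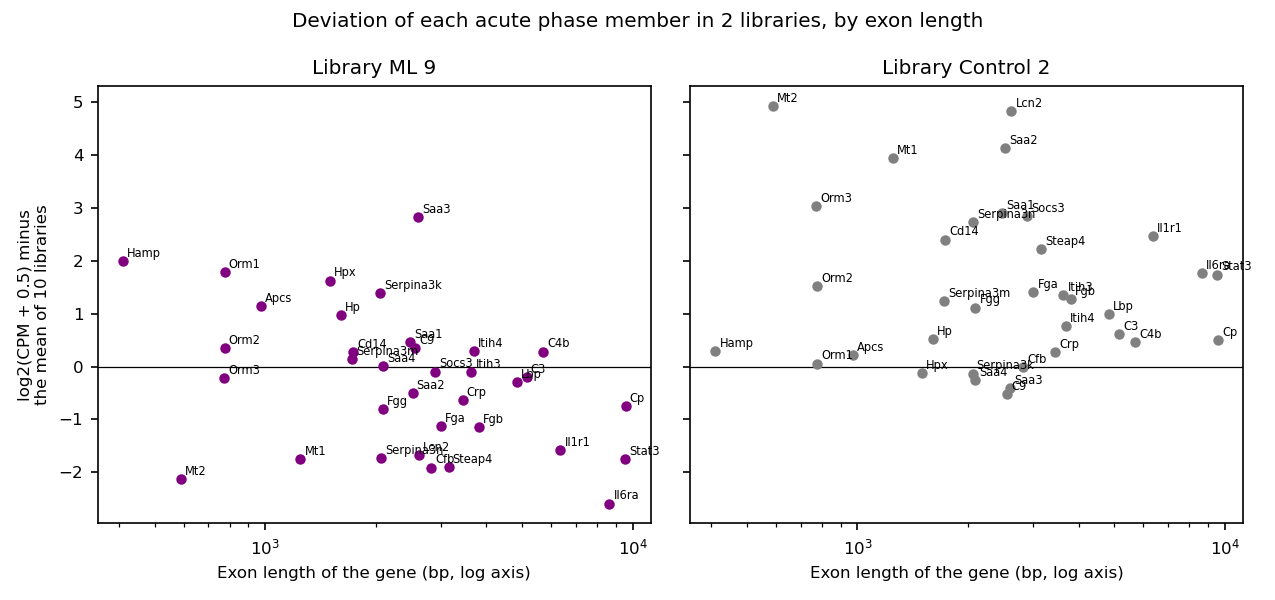
Each point is a member, with its exon length on a log axis and its log2(CPM + 0.5) minus the mean of 10 libraries in ML 9 (left) and control 2 (right). In ML 9 the members with the highest values are mostly short and the 4 longest lie below 0, while in control 2 members from the shortest to the longest lie above 0.

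ML 9 was highest of 10 for 7 members (Saa3, Orm1, Apcs, Hp, Hpx, Hamp and Serpina3k) and lowest for 7 others (Crp, Steap4, Fgb, Fgg, Cfb, Il1r1 and Stat3). Of all tested genes, 28.9% were highest and 26.4% lowest in ML 9, larger shares than those of the members. Exon length had a median of 1499 bp in the 7 members that were highest and 3444 bp in the 7 that were lowest. The 21 members highest in control 2 spanned 588 to 9527 bp. ML 9 also had 1580 CPM of summed Kupffer cell and macrophage markers, against 361 and 558 CPM in the other ML libraries, 403 to 526 CPM in FL and 369 to 625 CPM in controls. In control 2 this sum was 411 CPM. High sums in ML 9 were not particular to macrophages. The monocyte sum was 496 CPM there, against 46.1 to 166 CPM in controls, and the stellate cell sum 540 CPM, against 282 to 327 CPM. Sums for sinusoidal endothelial, T and NK, B and plasma cell, neutrophil and adipocyte markers were also highest in ML 9. The cholangiocyte sum was lowest there, at 25.8 CPM. The part of exon length and of these cell types in the members' levels was not tested.

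Genes upstream in the pathway were read from a list of 44 interleukin-6 and interleukin-1 signalling genes, of which 41 were tested. None passed in edgeR or limma-voom in any comparison, or in DESeq2 in FL or ML against control. In FL against ML, DESeq2 called none but left 33 of the 41 without an adjusted p. In edgeR, 2, 7 and 7 had an unadjusted p under 0.05 in FL against control, ML against control and FL against ML. Of all genes, 3.53%, 16.1% and 20.0% did. For FL against control, 26 lay above and 15 below, where 55.3% of all genes lay below. In ML against control 11 lay above and 30 below, where 52.9% of all genes lay below. Il6 itself was nearly silent, at 0 to 0.029 CPM in FL, 0 counts in all 3 ML libraries, where a count of 0 allows up to 3 counts per library, and 0.067 to 0.306 CPM in controls, with the most in control 2. Cebpd, a C/EBP factor, had 5.67, 12.5 and 6.93 CPM in FL against 16.9, 24.8, 17.0 and 12.6 CPM in controls, without overlap by a narrow margin, and a log2 fold change of -1.09 (SE 0.39, edgeR adjusted p = 1.00). Junb, an immediate early factor, had 10.1 to 19.4 CPM in ML against 25.4, 135, 53.1 and 50.5 CPM in controls, a log2 fold change of -2.25 (SE 0.65, edgeR adjusted p = 0.301). Cish, a target of STAT5, had 8.22, 4.37 and 4.19 CPM in FL against 36.4, 45.8 and 17.7 CPM in ML (log2 fold change -2.57, SE 0.87, edgeR adjusted p = 0.238).

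Of 49 other positive acute phase genes, 47 were tested and none passed in edgeR in any comparison. In FL against control, ML against control and FL against ML, 3, 5 and 9 had an edgeR unadjusted p under 0.05. Of all genes, 3.53%, 16.1% and 20.0% did. Vnn1, a pantetheinase, had 13.6, 9.50 and 12.4 CPM in FL against 50.8, 49.9, 21.9 and 33.6 CPM in controls. Its log2 fold change was -1.72 (SE 0.37) in FL against control (edgeR adjusted p = 0.406, DESeq2 adjusted p = 0.00303) and -1.96 (SE 0.39) in FL against ML. DESeq2 called no other gene of the list in FL against control (0.351% of all genes). In FL against ML it called 4 (Fn1 and C6 higher, C8g and Mbl1 lower in FL), where 1.67% of all genes were called. It left 11 of the 47 without an adjusted p in FL against ML. C8g had 614, 3484 and 760 CPM in ML and Mbl1 252, 1180 and 336 CPM, so both were highest in ML 9. Mbl1 in ML 8 was close to the 246 CPM of FL 7. DESeq2 calls of this list in ML against control are not reported here. The chemokine Cxcl1 had 74.9, 147 and 6.61 CPM in FL, 5.96, 8.67 and 3.94 CPM in ML, and 13.4, 217, 22.6 and 16.2 CPM in controls, with control 2 again the highest.

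Negative acute phase genes, which encode proteins that liver makes less of in inflammation, gave 0 of 23 past the threshold in edgeR in each comparison. In FL against control, ML against control and FL against ML, 0, 4 and 6 had an edgeR unadjusted p under 0.05. Of all genes, 3.53%, 16.1% and 20.0% did. For FL against control, 7 of the negative genes lay above and 16 below, where 55.3% of all genes lay below. In ML against control 14 lay above and 9 below. Their median log2 fold change was 0.44, against -0.047 over all genes, of which 52.9% lay below. The part of ML 9 and of exon length in this median was not tested. Rbp4, the retinol carrier, had 3156, 9957 and 5744 CPM in ML against 3608, 2687, 2964 and 2708 CPM in controls, a log2 fold change of 1.07 (SE 0.37, edgeR adjusted p = 0.301). Its highest level was in ML 9, and its lowest ML level, 3156 CPM, lay within the controls. Ttr was also highest in ML 9, whereas albumin was not. Cyp3a11, a drug-metabolising P450, differed between FL and control by -1.30 on the log2 scale (SE 0.60, edgeR adjusted p = 1.00). Pon1, the HDL esterase, had 451, 663 and 618 CPM in FL against 943, 1736 and 1039 CPM in ML (log2 fold change -1.10, SE 0.34, edgeR adjusted p = 0.238, DESeq2 adjusted p = 0.0363). DESeq2 called 3 of the 23 lower in FL than in ML (Apoc3, Pon1 and Rbp4), where 1.67% of all genes were called. It left 1 of the 23 without an adjusted p there. Transthyretin (Ttr) was at 5795 CPM in control 2, within the 5156 to 6152 CPM of the other controls. Albumin was at 60430 CPM in control 2, its highest level of the 10 libraries. Cyp7a1, the rate-limiting enzyme of bile acid synthesis, was lowest there, at 10.6 CPM against 34.0 to 181.5 CPM in the 9 other libraries. Of all tested genes, 11.2% were lowest of 10 in control 2.

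Metal response genes (19 tested) and glucocorticoid response genes (15 tested) bear on the metallothioneins, and none passed in edgeR in any comparison. Il6, Ttr, Cyp7a1 and the genes described next from these 2 lists, up to Slc30a1, were chosen after their values were seen. The metal list had 1, 2 and 4 genes at an unadjusted p under 0.05 and the glucocorticoid list 3, 2 and 1, in FL against control, ML against control and FL against ML. Of all genes, 3.53%, 16.1% and 20.0% were. Slc39a14, the zinc and iron importer that interleukin-6 induces in liver, was at 845 CPM in control 2, against 58.6 to 444 CPM in the 9 other libraries. Haem oxygenase (Hmox1) was at 117 CPM in control 2, against 8.78 to 20.3 CPM in the others. Fkbp5, a glucocorticoid receptor target, was at 340 CPM in control 2, against 7.75 to 180 CPM in the others. The zinc exporter Slc30a1, a target of the metal factor MTF1, was at 37.2 CPM in control 2, within the 17.8 to 50.2 CPM of the other controls. Slc39a10, a zinc importer, differed by 1.22 (SE 0.50) between FL and control and by 1.65 (SE 0.56) between FL and ML on the log2 scale (edgeR adjusted p = 1.00 and 0.238). The ferritin light chain gene Ftl1 had 0.74 (SE 0.32) in ML against control (edgeR adjusted p = 0.301). DESeq2 called 1 gene of the metal list, the ferritin heavy chain gene Fth1, lower in FL than in ML, where 1.67% of all genes were called. It left 13 of the 19 genes without an adjusted p in that comparison.

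In the glucocorticoid list, 12 of 15 genes lay below control in FL, where 55.3% of all genes did, and 12 of 15 in ML, where 52.9% did. Both use the same 4 controls, and control 2 was 17.8-fold above the next control for Cdkn1a, 7.56-fold for Fkbp5 and 5.96-fold for Gadd45b, which were chosen after their values were seen. Sgk1, a kinase gene induced by glucocorticoids, had 15.5, 13.9 and 14.2 CPM in FL, 16.7, 13.6 and 25.7 CPM in ML, and 41.7, 42.5, 46.5 and 21.3 CPM in controls. All FL libraries lay below all controls. Against control, its log2 fold change was -1.38 (SE 0.34) for FL (edgeR adjusted p = 0.636, DESeq2 adjusted p = 0.0254) and -1.02 (SE 0.34) for ML (edgeR adjusted p = 0.301). Sgk1 was highest in control 3, not in control 2. Angptl4 had 90.2, 129 and 116 CPM in FL against 101, 328 and 259 CPM in ML (log2 fold change -1.04, SE 0.41, edgeR adjusted p = 0.238).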

How the data were processed

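Liver RNA of 10 libraries was measured. The libraries were directional, made from polyA RNA and read from both ends, per the labels' protocols. The deposited values are raw counts per gene, made by the authors with STAR and featureCounts on GRCm38, per the submitters' processing notes. The sources used here give no versions, annotation release or strand setting, so overlapping and near-identical genes are uncertain. Symbols, coordinates and exon lengths came from GENCODE M21, which matched 45229 of 46071 rows.

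edgeR 4.0.16 (R 4.3.3) was fitted to all 10 libraries with TMM factors, filterByExpr (minimum count 10) and a robust quasi-likelihood F test, giving 14820 genes, 7 residual degrees of freedom and a common biological coefficient of variation of 0.448. The threshold was a Benjamini-Hochberg adjusted p under 0.05 (two-sided tests). An SE was taken as the fold change on the log2 scale over the square root of F. Alternatives were DESeq2 1.42.0, limma-voom 3.58.1, sva 3.50.0, other scalings and filters, and libraries left out. The procedure was tested on simulated data. No library repeated another of its group: pairs differed at a chi-square of 90.6 to 630 per degree of freedom.

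The members, pathway lists and marker lists were chosen with earlier results of these data known. Members were described in full for the paralog families, the signalling genes and the 6 with the lowest p per comparison. From each pathway list the 3 genes with the lowest p per comparison could be named, and exceptions are stated. The values of 1 such gene are not reported here.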

Additional observations from a re-analysis of the deposited data

Results flagged for a closer look

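In the 4 controls, 10 of 35 members (28.6%) had 1 library far from the other 3, by the gap to its nearest neighbour over the group's range. The limit used would flag about 1 in 20 groups of normally distributed values, which CPM are not. Of all tested genes, 15.5% were flagged the same way, and the members are read against that share. For 7 members the library was control 2, on the high side (20.0% of members, against 1.32% of all tested genes). It had 37.1 CPM of Orm3, 376 CPM of Lcn2, 763 CPM of Steap4, 2172 CPM of Mt1, 2000 CPM of Mt2, 354 CPM of Il1r1 and 85.2 CPM of Socs3. Control 4 was low for Orm1 (461 CPM) and Serpina3k (9082 CPM), and control 3 was high for C9 (1064 CPM).

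On the log2(CPM + 0.5) scale, Steap4 lay above the control mean in all 3 FL libraries and below it in all 3 ML libraries. It was the only member with FL and ML on opposite sides (2.86% of members), against 4.08% of tested genes with FL above and ML below. The test of the difference between FL and ML gave a log2 fold change of 1.68 (SE 0.86) with an edgeR adjusted p of 0.274, and the control mean itself rested on control 2.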

How the results depend on the processing

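Of 43 fold changes recomputed under each alternative, 29 kept their direction throughout and 14 turned in at least 1, and those past the threshold in DESeq2 included Stat3 and Pon1 in FL against ML and Vnn1 and Sgk1 in FL against control. Without control 2, control 1 and ML 9 together was added after seeing the data. No paired analysis was possible because no replicate number is shared between groups. All members had counts in every library, with as few as 19 for Lcn2 and 21 for Orm3 in control 1, and which limits the comparisons more, depth or spread, was not tested. The cause of the turns was not tested.

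Genes past the threshold numbered 2 in FL against control, and 52 with DESeq2, 1 with limma-voom, 1 with no filter on low counts and 0 to 2 with single libraries left out. In ML against control they numbered 0, and 46 with DESeq2, 3 with no filter, 1 without controls 1 and 2 and ML 9, and 0 to 1 with single libraries left out. In FL against ML they numbered 1, and 248 with DESeq2, 2 with no filter, 0 with only the groups compared, 2 with a correction for exon length and GC content, and 0 to 1 with single libraries left out. Members past the threshold numbered 0 throughout, except 1 (Stat3) with DESeq2 in FL against ML. The members' median log2 fold change in FL against ML was 0.64, and -0.11 with 1 surrogate variable, 0.49 with limma-voom and 0.39 to 0.74 with single libraries left out.

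In FL against control, limma-voom turned Lcn2 to 0.25, Serpina3n to 0.031, Saa1 to 1.26, Saa2 to 1.02, Mt1 to 0.21 and Socs3 to 0.93. Without controls 1 and 2 and ML 9, Serpina3m turned to 0.015, Saa1 to 0.69, Saa2 to 0.59, Mt1 to 0.72, Mt2 to 0.84 and Socs3 to 1.84. Stat3 turned to -0.017 with 1 surrogate variable and to -0.30 without control 1 and ML 9. With single libraries left out, values ran from -2.73 to 0.45 for Lcn2, -0.78 to 0.011 for Serpina3m, -1.24 to 0.33 for Serpina3n, -0.60 to 1.18 for Saa1, -1.41 to 1.10 for Saa2, -2.03 to 1.09 for Mt1, -2.70 to 1.34 for Mt2, -0.54 to 2.17 for Socs3 and -0.31 to 0.65 for Stat3. Each of these but Stat3 turned without control 2. Saa1 also turned without FL 5 (0.29) and Socs3 without FL 7 (0.30). Stat3 turned without control 1 (-0.31), control 4 (-0.14), FL 5 (-0.14) and FL 6 (-0.044).

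In ML against control, Mt1 turned to 0.46, Mt2 to 1.05 and Socs3 to 0.11 with 1 surrogate variable, and Mt1 to 0.12 and Socs3 to 0.16 without controls 1 and 2 and ML 9. With single libraries left out, values ran from -4.62 to 0.044 for Mt1 and -1.98 to 0.68 for Socs3. In FL against ML, 1 surrogate variable turned Saa3 to 0.12 and Hamp to 0.17.

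Members at an unadjusted p under 0.05 in ML against control numbered 5, and 13 without control 1 (35.1% of all genes) and 1 without control 2 (7.51% of all genes). Without control 1 the lowest edgeR adjusted p was 0.06 (Lcn2, Fga, Fgb, Serpina3n and Stat3), and without control 2 it was 0.576 (Fgb, Orm1, Serpina3k and Stat3).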
